A study of Mus musculus with 11 samples.

Results

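The kinesins are microtubule motors, and 40 genes for kinesin heavy and light chains were followed in mouse brain tumors driven by NRAS or by PDGFB and in normal brain. Every row was taken whose symbol is Kif with a number and at most 1 letter, Kifc with a number or Klc with a number, and whose level was at least 1 FPKM in at least 3 of 11 libraries. In the table, 44 symbols had such a name and 40 passed, out of 24320 genes in all and 14491 that passed the same filter and were tested. Kif12, Kif2b, Kif6 and Kif27 were below it. FPKM counts sequenced fragments scaled by transcript length and by the total of the library.

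Newborn mice had received plasmids into the right lateral ventricle that encoded the SB transposase, firefly luciferase, SV40LgT (the large T antigen of simian virus 40) and an oncogene. This was constitutively active NRASG12V for the 4 NRAS tumors and PDGFB for the 4 PDGFB tumors, and the tissue was taken under GFP light when tumors were midway in their growth. The 3 normal brains are labelled as wild-type controls, and 2 of their titles pair them with a tumor, normal brain 1 with NRAS tumor 2 and normal brain 3 with PDGFB tumor 1. Neither the age at collection nor the promoters of the plasmids are stated in the labels. The series text names FVB mice, whereas the sample labels name B6 for all libraries but normal brain 3. The labels do not say that the replicates of a group came from separate animals, so a p-value reflects only how these samples vary, and that variation may be technical. Values of a group are given in the order of its replicate numbers. In whole tissue, fewer cells of a type and less RNA per cell cannot be told apart.

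Most kinesins walk along microtubules with energy from ATP. A family of them works in dividing cells: they push spindle poles apart, take tubulin off microtubule ends, position chromosomes and build the midzone at which the cell is cut. A second set works in cells that are not dividing and is abundant in neurons, where the motors carry vesicles, mitochondria and protein complexes along axons and dendrites. The main axonal carrier, kinesin-1, pairs heavy chains of the Kif5 genes with light chains of the Klc genes that bind cargo.

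In NRAS tumors 15 of the 40 genes were higher and 14 lower than in normal brain, and 11 did not pass the test. The test was limma on log2(FPKM + 1) with Benjamini-Hochberg adjustment over the 14491 genes and a threshold of 0.05 on the adjusted p. All adjusted p below are of this kind. All fold changes are on that log2 scale and are followed by ± 1 SE. Of all genes tested, 62.3% were called in that comparison, 32% higher and 30.3% lower. In PDGFB tumors 17 kinesin genes were higher and 15 lower than in normal brain, where 58.5% of all genes were called, 29.3% higher and 29.2% lower. Between the models 2 kinesin genes were higher and 9 lower in NRAS than in PDGFB tumors, against 26.6% of all genes called, 14.3% higher and 12.2% lower. The families that make up these counts went in different directions, as the plot of fold changes shows. The median log2 change of the 40 genes was -0.13 in NRAS tumors against normal brain, 0.0016 in PDGFB tumors against normal brain and -0.34 between the models, beside 0.01, 0.04 and -0.04 over all genes tested.

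**Figure D1:**
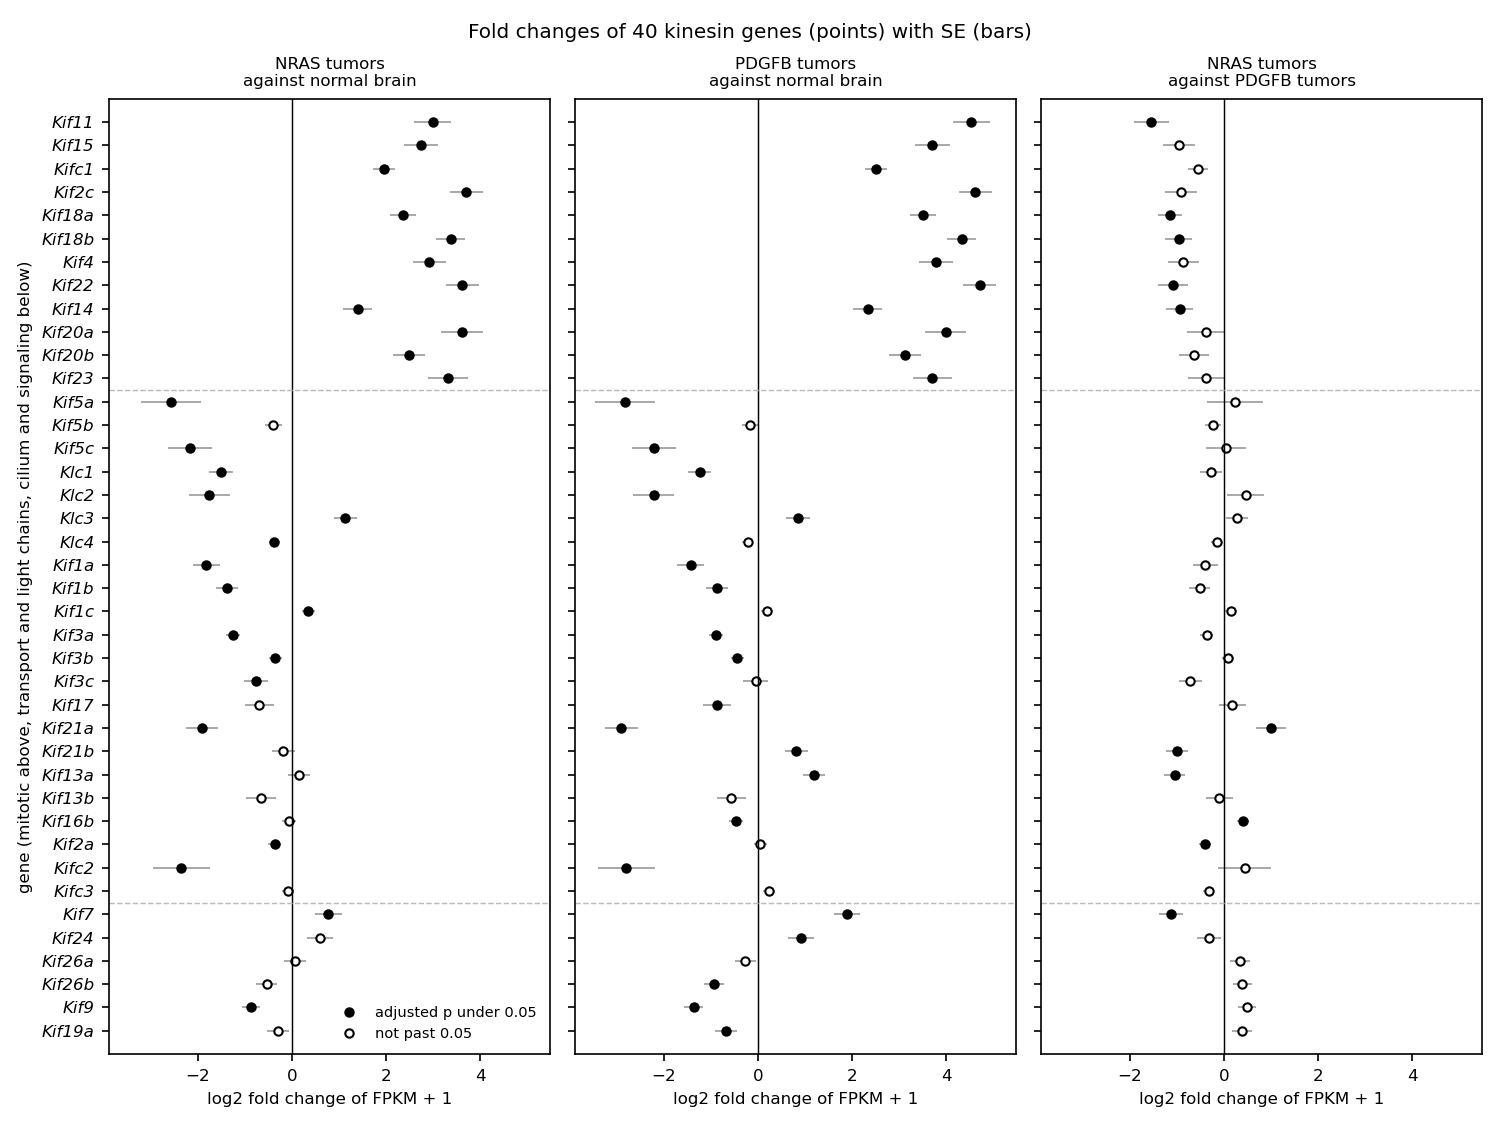
Log2 fold change of FPKM + 1 (horizontal axis) for each of the 40 kinesin genes (vertical axis) in NRAS tumors against normal brain, PDGFB tumors against normal brain and NRAS against PDGFB tumors. Points are estimates, bars are SE and filled points have an adjusted p under 0.05 (limma); all 12 mitotic genes lie right of zero in the first and second panel and left of zero in the third.

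All 12 genes listed as mitotic and cytokinetic kinesins were higher in both models than in normal brain. The role lists were drawn up with earlier results of these data known. Kif2a, which works in spindles as well as neurites, was listed with the transport kinesins. Their median log2 change was 2.96 in NRAS tumors and 3.74 in PDGFB tumors, and for each of the 12 genes every tumor of either model lay above every normal brain. Such a lack of overlap held for 65.1% of all genes tested in NRAS tumors against normal brain and 65.7% in PDGFB tumors against normal brain, either direction counted. Summed over the 12 genes, the level was 210.4, 56.3, 106 and 169.8 FPKM in NRAS tumors, 227, 328, 207 and 199 FPKM in PDGFB tumors and 3.67, 3.71 and 4.35 FPKM in normal brain. They thus held 31.3, 5.30, 14.9 and 22.2% in NRAS tumors, 19.9, 35.4, 21.1 and 22.7% in PDGFB tumors and 0.216, 0.190 and 0.208% in normal brain of the summed kinesin FPKM.

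Kif11, the bipolar kinesin-5 that slides spindle microtubules apart, lies on chromosome 19 from 37376403 to 37421859 (GRCm38). Its level was 24.4, 5.35, 10.9 and 11.5 FPKM in NRAS tumors, 36.1, 55.7, 30.6 and 24.5 FPKM in PDGFB tumors and 0.479, 0.513 and 0.711 FPKM in normal brain. The 3 groups did not overlap, although NRAS tumor 1 and PDGFB tumor 4 nearly touched. The log2 fold change was 2.99 ± 0.39 (adjusted p = 0.000164) in NRAS tumors and 4.53 ± 0.39 (adjusted p = 1.18e-05) in PDGFB tumors against normal brain. Kif15, a motor that also works between spindle poles, stood at 14.4, 3.19, 8.29 and 10.2 FPKM in NRAS tumors, 16.5, 24.0, 14.5 and 13.1 FPKM in PDGFB tumors and 0.494, 0.256 and 0.316 FPKM in normal brain. Kif15 changed by 2.74 ± 0.37 (adjusted p = 0.000181) in NRAS tumors and 3.70 ± 0.37 (adjusted p = 2.74e-05) in PDGFB tumors. Kifc1 moves toward the minus end of microtubules and draws poles together. It stood at 5.94, 2.14, 3.46 and 3.67 FPKM in NRAS tumors, 5.43, 7.42, 5.17 and 5.21 FPKM in PDGFB tumors and 0.167, 0.261 and 0.137 FPKM in normal brain. Its changes were 1.96 ± 0.24 (adjusted p = 0.000101) in NRAS tumors and 2.51 ± 0.24 (adjusted p = 1.99e-05) in PDGFB tumors. Kifc5b is a close relative that the naming rule does not take in, and reads could be split between the 2 genes. Kifc5b averaged 2.26 FPKM in NRAS tumors, 3.62 FPKM in PDGFB tumors and 0.311 FPKM in normal brain.

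A second set acts on chromosomes and microtubule ends. Kif2c, which strips tubulin from the ends at centromeres, was at 28.3, 6.89, 11.9 and 18.5 FPKM in NRAS tumors, 26.0, 37.4, 24.4 and 26.4 FPKM in PDGFB tumors and 0.162, 0.211 and 0.193 FPKM in normal brain. Its change was 3.71 ± 0.36 (adjusted p = 2.38e-05) in NRAS tumors and 4.62 ± 0.36 (adjusted p = 5.63e-06) in PDGFB tumors. Kif22, a motor that binds chromosome arms, was at 35.8, 9.59, 17.3 and 28.5 FPKM in NRAS tumors, 38.3, 56.4, 39.3 and 45.9 FPKM in PDGFB tumors and 0.836, 0.815 and 0.583 FPKM in normal brain. Its change against normal brain was 3.62 ± 0.35 (adjusted p = 2.39e-05) in NRAS tumors and 4.71 ± 0.35 (adjusted p = 4.39e-06) in PDGFB tumors. Because normal brain is so low for these genes, their order by fold change depends on the pseudocount, and with 0.1 in place of 1 Kif18b comes first in both models (5.99 in NRAS tumors and 7.02 in PDGFB tumors). Every normal brain stayed under 1 FPKM for both genes. Kif4, a motor bound to chromosomes and encoded on the X chromosome, was at 16.0, 3.89, 7.86 and 12.2 FPKM in NRAS tumors, 15.9, 23.7, 14.6 and 15.2 FPKM in PDGFB tumors and 0.206, 0.355 and 0.372 FPKM in normal brain. Its change was 2.92 ± 0.35 (adjusted p = 0.000102) in NRAS tumors and 3.78 ± 0.35 (adjusted p = 1.88e-05) in PDGFB tumors.

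Kif18a, which damps the movement of chromosomes at the spindle equator, was at 10.9, 4.27, 5.01 and 4.54 FPKM in NRAS tumors, 13.7, 18.7, 12.3 and 11.6 FPKM in PDGFB tumors and 0.427, 0.132 and 0.391 FPKM in normal brain. NRAS tumor 1 lay next to the PDGFB tumors and the other NRAS tumors well below. The change was 2.37 ± 0.28 (adjusted p = 8.32e-05) in NRAS tumors and 3.501 ± 0.28 (adjusted p = 6.68e-06) in PDGFB tumors. For its relative Kif18b, a regulator of astral microtubules, the level was 17.4, 5.45, 11.5 and 8.72 FPKM in NRAS tumors, 19.1, 29.2, 18.7 and 16.3 FPKM in PDGFB tumors and 0.0908, 0.0664 and 0.0232 FPKM in normal brain. Normal brain was near 0 for this gene. The change was 3.37 ± 0.31 (adjusted p = 1.8e-05) in NRAS tumors and 4.33 ± 0.31 (adjusted p = 3.64e-06) in PDGFB tumors.

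The cytokinetic motors followed. Kif20a, needed to bring mitotic kinases to the midzone, was at 26.1, 5.93, 12.4 and 31.5 FPKM in NRAS tumors, 20.3, 29.8, 18.5 and 17.1 FPKM in PDGFB tumors and 0.338, 0.309 and 0.518 FPKM in normal brain. Kif23, the motor of the centralspindlin complex, was at 18.4, 5.86, 11.1 and 30.5 FPKM in NRAS tumors, 20.7, 24.1, 16.4 and 14.7 FPKM in PDGFB tumors and 0.287, 0.474 and 0.813 FPKM in normal brain. For both, NRAS tumor 4 was the highest of all 11 libraries, whereas for each of the other 10 mitotic genes the highest library was PDGFB tumor 2. Kif20a changed by 3.61 ± 0.44 (adjusted p = 0.000109) in NRAS tumors and 3.98 ± 0.44 (adjusted p = 5.21e-05) in PDGFB tumors. Kif23 changed by 3.31 ± 0.42 (adjusted p = 0.000124) in NRAS tumors and 3.70 ± 0.42 (adjusted p = 5.57e-05) in PDGFB tumors. Kif14, which recruits citron kinase to the midbody, was the lowest of the mitotic genes in each NRAS tumor. It was at 3.57, 0.949, 1.70 and 1.92 FPKM in NRAS tumors, 5.16, 7.07, 4.32 and 2.58 FPKM in PDGFB tumors and 0.0528, 0.146 and 0.0989 FPKM in normal brain. Its change was 1.40 ± 0.30 (adjusted p = 0.00247) in NRAS tumors and 2.34 ± 0.30 (adjusted p = 0.000132) in PDGFB tumors. Kif20b, a further midzone motor, was at 9.07, 2.73, 4.53 and 7.90 FPKM in NRAS tumors, 9.40, 14.2, 8.60 and 6.09 FPKM in PDGFB tumors and 0.133, 0.169 and 0.191 FPKM in normal brain. It rose by 2.49 ± 0.34 (adjusted p = 0.000189) in NRAS tumors and by 3.13 ± 0.34 (adjusted p = 4.36e-05) in PDGFB tumors.

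**Figure D2:**
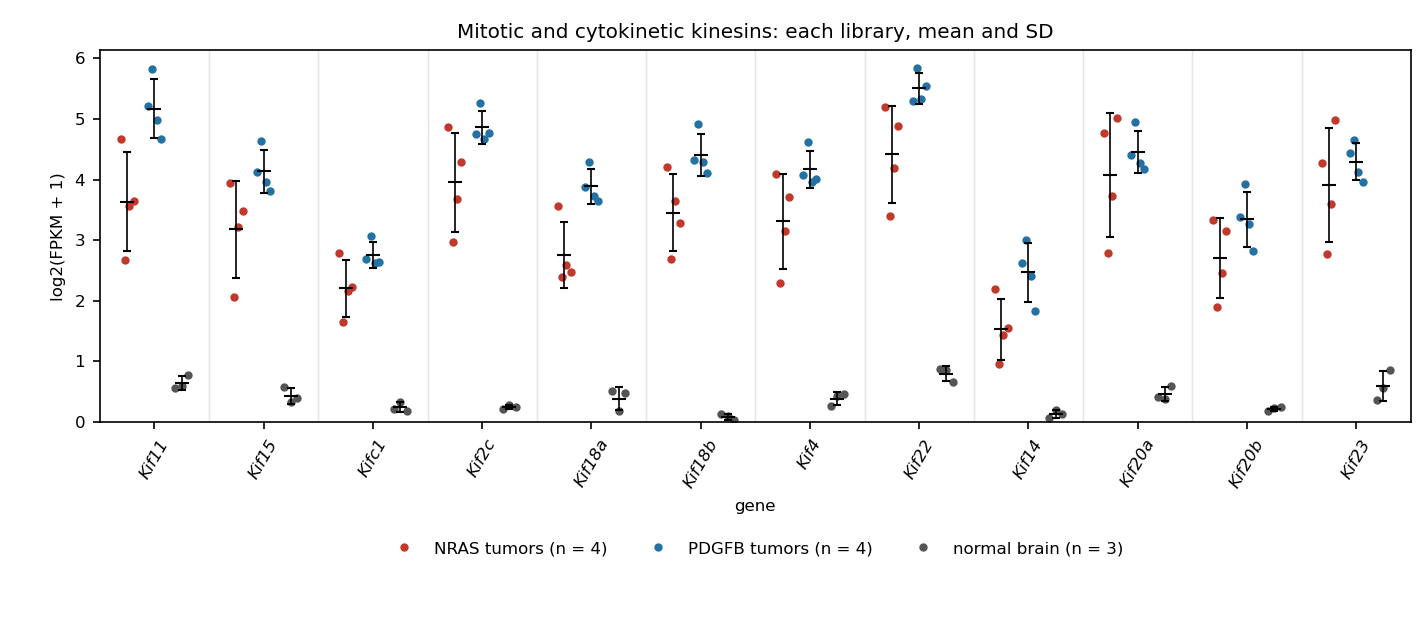
Level of the 12 mitotic and cytokinetic kinesins, as log2(FPKM + 1), in each library of NRAS tumors, PDGFB tumors and normal brain; points are libraries and bars the mean and SD. The normal brains lie near the bottom for every gene, and NRAS tumor 2 is the lowest NRAS point for all 12.

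These genes moved together from library to library. NRAS tumor 2 was the lowest NRAS tumor for 12 of 12 and NRAS tumor 1 the highest for 10 of 12. PDGFB tumor 2 was the highest PDGFB tumor for 12 of 12 and PDGFB tumor 4 the lowest for 8 of 12. The 10 proliferation markers (such as Mki67 and Top2a) were all higher in both models, with a summed level of 889, 291, 588 and 466 FPKM in NRAS tumors, 816, 1253, 792 and 810.3 FPKM in PDGFB tumors and 52.3, 49.8 and 51.2 FPKM in normal brain. Per 100 FPKM of that sum, the FPKM of the mitotic kinesins was 18.01 to 36.5 in NRAS tumors, 24.5 to 27.8 in PDGFB tumors and 7.02 to 8.49 in normal brain. That ratio of sums is set mostly by the abundant genes. On the log2(FPKM + 1) scale the median change of the markers was the larger, 3.85 in NRAS tumors and 4.72 in PDGFB tumors. That scale shrinks the change of low genes, and all 12 mitotic kinesins were under 1 FPKM in normal brain. Which list rose more thus depends on the scale. The part of proliferation in the change between the models was not tested.

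Promoters were read for 31 of the 40 genes from RefSeq (GRCm38.p6), as the 300 bases from 250 before to 50 after the start site. On both strands, 3 motifs known from cell-cycle genes were searched. The cell-cycle homology region (CHR, TTTGAA, or TTCAAA on the other strand) was found in 10 of 11 mitotic kinesins and in 1 of 12 transport kinesins, against 20.2% of 27025 genes in the promoter table. CCAAT (or ATTGG) was found in 7 of 11 mitotic kinesins, 3 of 12 transport kinesins and 41.1% of all genes. Both together were found in 7 of 11 mitotic kinesins, 0 of 12 transport kinesins and 7.97% of all genes. An E2F motif (TTTCCCGC, TTTGGCGC, TTTGCCGC or TTTCGCGC) was found in Kif15 and Kif18a, 2 of 11, and in 2.61% of all genes. A match is a description of the letters and not a site shown to be bound. By the GENCODE positions, the windows read for Kif2c, Kif14 and Kif4 lie inside the gene and do not span its first base. The same is true of the only window of Kif17, a transport kinesin with no match. The only CHR match of a transport kinesin, in Kif1a, is likewise in a window inside the gene. The Kif1a window at the gene start has none. Those of Kif11, Kif18b and Kif23 are shown because a CCAAT match stands upstream of a CHR match near the start site. That of Kif15 is shown because an E2F match abuts a CHR match. Kif5c, a neuronal transport motor, is shown for contrast and has none of the 3 motifs. Capitals mark the matches.
Kif11 (chr19:37376132-37376431, plus strand): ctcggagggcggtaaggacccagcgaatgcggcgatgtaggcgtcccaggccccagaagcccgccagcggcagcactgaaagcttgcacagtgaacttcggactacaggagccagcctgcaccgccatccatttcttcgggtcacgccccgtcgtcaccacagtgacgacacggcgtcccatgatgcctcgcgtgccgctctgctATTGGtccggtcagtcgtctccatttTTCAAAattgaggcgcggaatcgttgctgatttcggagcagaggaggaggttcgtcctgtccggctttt
Kif18b (chr11:102925075-102925374, minus strand): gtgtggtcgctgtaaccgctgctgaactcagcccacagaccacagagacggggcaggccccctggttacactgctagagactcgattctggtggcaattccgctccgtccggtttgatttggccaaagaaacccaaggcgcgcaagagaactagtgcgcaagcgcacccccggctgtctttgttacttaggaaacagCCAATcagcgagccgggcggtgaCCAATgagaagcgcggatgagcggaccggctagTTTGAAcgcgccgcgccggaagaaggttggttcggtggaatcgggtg
Kif23 (chr9:61946750-61947049, minus strand): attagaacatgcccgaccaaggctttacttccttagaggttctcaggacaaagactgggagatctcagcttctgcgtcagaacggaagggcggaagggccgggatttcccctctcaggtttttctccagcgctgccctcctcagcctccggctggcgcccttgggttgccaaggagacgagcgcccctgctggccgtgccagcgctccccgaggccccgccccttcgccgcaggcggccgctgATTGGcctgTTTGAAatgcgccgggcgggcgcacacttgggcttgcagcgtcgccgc
Kif15 (chr9:122950831-122951130, plus strand): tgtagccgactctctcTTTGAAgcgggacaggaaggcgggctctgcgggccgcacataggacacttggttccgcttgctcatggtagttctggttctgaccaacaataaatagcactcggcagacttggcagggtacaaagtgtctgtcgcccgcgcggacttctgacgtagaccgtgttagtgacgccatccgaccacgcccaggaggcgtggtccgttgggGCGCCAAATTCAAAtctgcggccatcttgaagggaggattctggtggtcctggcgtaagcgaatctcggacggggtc
Kif5c (chr2:49619036-49619335, plus strand): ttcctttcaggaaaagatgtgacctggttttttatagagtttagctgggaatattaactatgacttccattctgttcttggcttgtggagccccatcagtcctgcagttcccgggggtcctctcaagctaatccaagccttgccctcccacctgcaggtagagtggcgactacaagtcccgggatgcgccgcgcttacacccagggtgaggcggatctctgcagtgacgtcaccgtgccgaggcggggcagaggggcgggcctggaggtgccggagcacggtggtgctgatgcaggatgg

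In Kif11 the CHR match begins 19 bases before the start site and the CCAAT match 45 bases before it. In Kif18b the CHR match begins at base 4 after the start, with CCAAT matches 53 and 30 bases before. In Kif23 they are at base 3 after the start and 7 bases before it. A CHR match that begins within 30 bases of the start site was found in 8 of the 11 mitotic promoters and in 3.66% of all genes. Among genes with any CHR match it was found in 8 of 10 mitotic kinesins and in 18.1% of the 5466 genes.

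**Figure D3:**
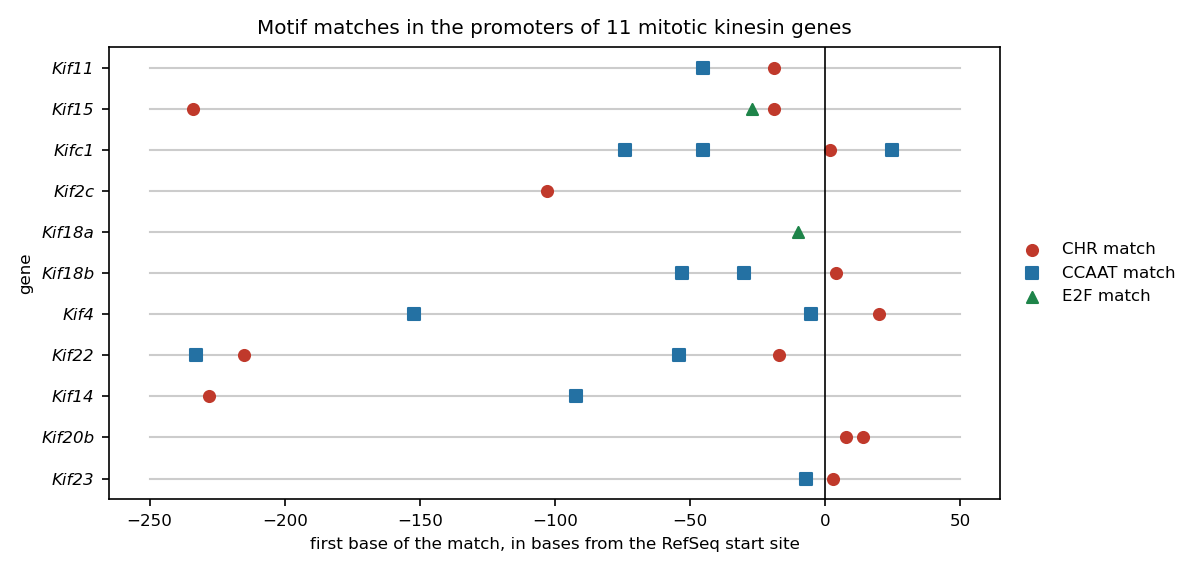
Motif matches in the promoters of 11 mitotic kinesin genes (vertical axis) by distance of the first base from the RefSeq start site in bases (horizontal axis); circles are CHR, squares CCAAT and triangles E2F matches, and grey lines the window read. CHR matches lie within 30 bases of the start site in 8 genes.

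Between the models, 5 of the 12 mitotic kinesins were lower in NRAS than in PDGFB tumors and 7 did not pass the test. All 12 estimates were negative, with a median of -0.92 beside -0.04 over all genes. In 3 of the 12 the 4 NRAS tumors lay wholly below the 4 PDGFB tumors, which is 25.0% of them beside the 24.5% of all genes tested that did not overlap in either direction. Kif11 was 2.90-fold lower, a log2 change of -1.54 ± 0.36 (adjusted p = 0.0109). Kif18a was 2.196-fold lower, at -1.13 ± 0.26 (adjusted p = 0.00882). The change of Kif22 was -1.08 ± 0.32 (adjusted p = 0.0295), that of Kif18b -0.96 ± 0.29 (adjusted p = 0.0295) and that of Kif14 -0.94 ± 0.28 (adjusted p = 0.0307). The last 3 calls depended on single libraries. The between-model call of Kif22 was lost without NRAS tumor 3 or PDGFB tumors 2, 3 or 4 (adjusted p = 0.0552 to 0.0762). The between-model call of Kif18b was lost without NRAS tumor 4 or PDGFB tumors 1, 2 or 3 (adjusted p = 0.0556 to 0.0792). The between-model call of Kif14 was lost without NRAS tumors 2, 3 or 4 or PDGFB tumors 1, 2 or 3 (adjusted p = 0.0633 to 0.0816). Without NRAS tumor 1 the count was 9 of 12, with Kif2c, Kifc1, Kif15 and Kif4 also called (adjusted p = 0.00936 to 0.0205). It was 3 without NRAS tumor 3 or 4 or PDGFB tumor 1, and 2 without PDGFB tumor 2 or 3, with the replicate block and with the run of title numbers, described at the end, as a covariate. The smallest estimates were those of Kif20a, at -0.38 ± 0.41 (adjusted p = 0.539), and Kif23, at -0.39 ± 0.38 (adjusted p = 0.499).

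Some ratios between mitotic kinesins, which scaling of a library does not touch, separated the models and others did not. The ratio of Kif11 to Kif20a FPKM was 0.933, 0.902, 0.879 and 0.366 in NRAS tumors, 1.78, 1.87, 1.66 and 1.43 in PDGFB tumors and 1.42, 1.66 and 1.37 in normal brain. Every NRAS tumor was below every PDGFB tumor and every normal brain. The ratio of Kif11 to Kif23 was 1.33, 0.914, 0.976 and 0.378 in NRAS tumors, 1.74, 2.31, 1.86 and 1.67 in PDGFB tumors and 1.67, 1.08 and 0.875 in normal brain, again without overlap of the models. Kif11 made up 6.79 to 11.6% in NRAS tumors, 12.3 to 17.0% in PDGFB tumors and 13.05 to 16.4% in normal brain of the summed mitotic FPKM. The ratio of Kif11 to Kif22 overlapped, at 0.404 to 0.681 in NRAS tumors, 0.534 to 0.988 in PDGFB tumors and 0.573 to 1.22 in normal brain. These ratios were chosen after the values had been seen and have no test.

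Most partners of these motors were higher as well. Of 15 genes listed for the spindle, the chromosomal passenger complex and the midzone, 14 were higher and 1 lower in NRAS tumors, and likewise 14 and 1 in PDGFB tumors, against normal brain. Cdk1, the mitotic kinase, was at 4.98 ± 0.38 (adjusted p = 6.26e-06) in NRAS tumors and 5.44 ± 0.38 (adjusted p = 3.62e-06) in PDGFB tumors. Prc1, which bundles midzone microtubules, was at 4.69 ± 0.31 (adjusted p = 2.87e-06) in NRAS tumors and 5.40 ± 0.31 (adjusted p = 1.11e-06) in PDGFB tumors. The 1 lower gene in each was Cit, the gene of citron kinase, whose isoforms cannot be told apart in FPKM per gene. Its change was -1.35 ± 0.26 (adjusted p = 0.00115) in NRAS tumors and -1.13 ± 0.26 (adjusted p = 0.0032) in PDGFB tumors. Between the models 0 were higher and 7 lower in NRAS tumors, beside the 12.2% of all genes called lower. The lower count was 12 without NRAS tumor 1, 3 or 4 without any 1 of NRAS tumors 3 and 4 and PDGFB tumors 1, 2 and 3, and 3 with the replicate block or the run as a covariate. Racgap1, the partner of Kif23 in centralspindlin, was at -1.36 ± 0.27 (adjusted p = 0.00485), and Nusap1, which binds spindle microtubules, at -1.23 ± 0.28 (adjusted p = 0.00875).

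The transport kinesins were mostly lower in the tumors. This list takes in neuronal kinesins beside cargo motors, among them Kif2a, which trims microtubules. In NRAS tumors 10 of 18, Kif2a among them, were lower than in normal brain, 1 was higher and 7 did not pass the test. In PDGFB tumors 10 were lower, 2 higher and 6 did not pass. Their median log2 change was -0.67 in NRAS tumors and -0.51 in PDGFB tumors, beside 0.01 and 0.04 over all genes. Of all genes tested, 30.3% were called lower and 32% higher in NRAS tumors, and 29.2% and 29.3% in PDGFB tumors. Summed over the 18 genes, the level was 344, 775, 453 and 445 FPKM in NRAS tumors, 705, 472, 578 and 489 FPKM in PDGFB tumors and 1285, 1543 and 1644 FPKM in normal brain. Every tumor stood below every normal brain. Between the models 2 transport kinesins were higher and 3, Kif2a among them, lower in NRAS tumors. These counts are near the 14.3% of all genes called higher and the 12.2% called lower. Without NRAS tumor 2 the lower count was 8, with Kif1a, Kif1b, Kif3a, Kif3c and Kifc3 added, and without PDGFB tumor 4 it was 5.

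Kif5a, the neuronal kinesin-1 heavy chain, lies on chromosome 10 from 127225696 to 127263348 (GRCm38) and had the largest fall of the 40 genes in NRAS tumors. Its level was 32.6, 209, 72.8 and 96.3 FPKM in NRAS tumors, 144, 22.9, 73.9 and 99.2 FPKM in PDGFB tumors and 405, 515 and 603 FPKM in normal brain. It was 5.95-fold lower in NRAS tumors, at -2.57 ± 0.64 (adjusted p = 0.00496), and 7.03-fold lower in PDGFB tumors, at -2.81 ± 0.64 (adjusted p = 0.00308). Tumors of 1 model differed widely, with NRAS tumor 2 and PDGFB tumor 1 high and NRAS tumor 1 and PDGFB tumor 2 low. Kif5c, the second neuronal heavy chain, was at 21.2, 84.2, 45.9 and 38.3 FPKM in NRAS tumors, 76.9, 19.1, 47.9 and 39.1 FPKM in PDGFB tumors and 167, 194 and 219 FPKM in normal brain. The same 2 tumors were highest and the same 2 lowest as for Kif5a. It changed in NRAS tumors by -2.16 ± 0.47 (adjusted p = 0.00233) and in PDGFB tumors by -2.204 ± 0.47 (adjusted p = 0.00206).

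Kif5b, the heavy chain found in most cell types, did not pass the test in either model. It was at 43.7, 47.0, 40.7 and 43.3 FPKM in NRAS tumors, 61.7, 63.5, 50.2 and 35.6 FPKM in PDGFB tumors and 52.3, 62.5 and 58.1 FPKM in normal brain. Its changes were -0.39 ± 0.18 (adjusted p = 0.0784) in NRAS tumors and -0.16 ± 0.18 (adjusted p = 0.478) in PDGFB tumors. Without PDGFB tumor 4 the NRAS change passed the test (adjusted p = 0.0127). Kif5b thus made up 44.8, 13.8, 25.5 and 24.4% in NRAS tumors, 21.8, 60.2, 29.2 and 20.5% in PDGFB tumors and 8.38, 8.11 and 6.61% in normal brain of the summed Kif5 FPKM. Every tumor had a larger share than every normal brain. The mean share was 27.1% in NRAS tumors and 7.70% in normal brain, a difference of 19.4 points (two-sided exact permutation test, p = 0.0571, adjusted p = 0.129 over 3 comparisons). It was 32.9% in PDGFB tumors and 7.70% in normal brain, a difference of 25.2 points (exact p = 0.0857, adjusted p = 0.129). Between the models it was 27.1% in NRAS and 32.9% in PDGFB tumors (exact p = 0.629, adjusted p = 0.629). The smallest p this design can give is 0.0286. On the log2 ratio of Kif5b to the other heavy chains, the PDGFB difference from normal brain had that smallest p, which is not adjusted. On the same ratio the exact p was 0.0571 for NRAS tumors against normal brain and 0.629 between the models.

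**Figure D4:**
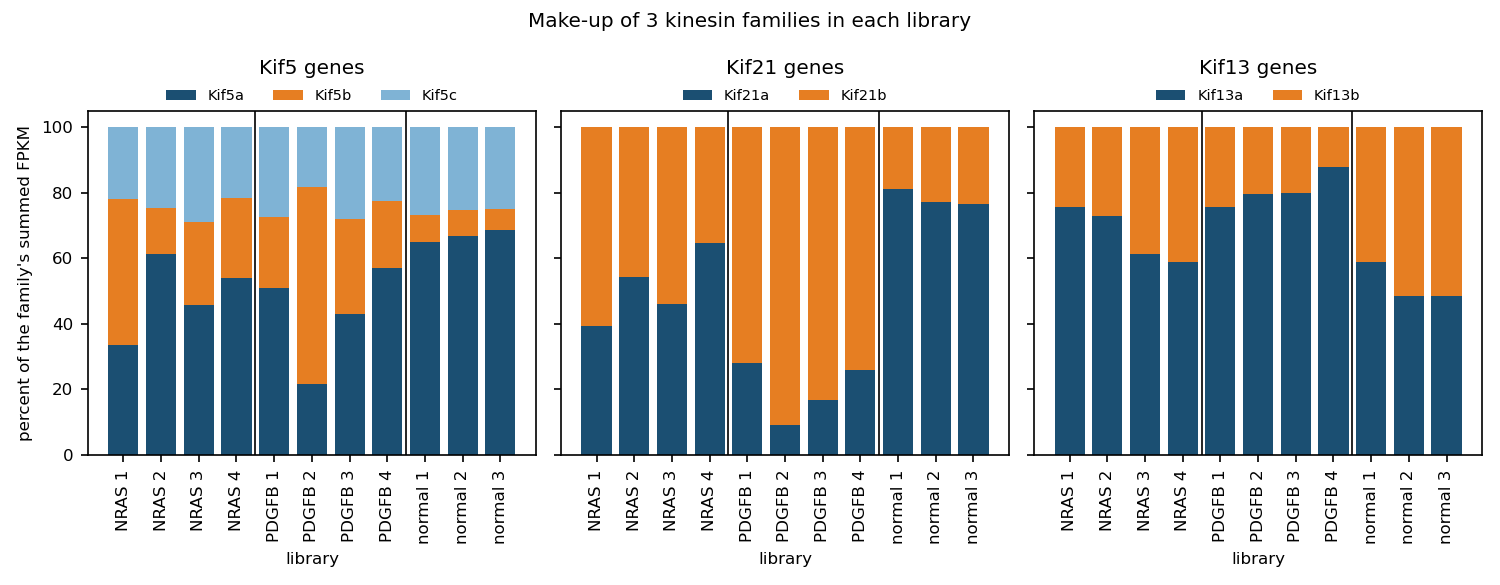
Share of the summed FPKM of the Kif5, Kif21 and Kif13 genes (vertical axis, percent) in each library, with NRAS tumors, PDGFB tumors and normal brain from left to right. The Kif5b share is larger in all 8 tumors than in the 3 normal brains, and the Kif21b share is largest in PDGFB tumors.

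Of the kinesin-3 motors of synaptic vesicle precursors, Kif1a was at 33.5, 87.9, 61.2 and 41.5 FPKM in NRAS tumors, 84.9, 62.4, 80.4 and 53.6 FPKM in PDGFB tumors and 169, 197 and 197 FPKM in normal brain. Its change was -1.82 ± 0.29 (adjusted p = 0.000419) in NRAS tumors and -1.42 ± 0.29 (adjusted p = 0.00155) in PDGFB tumors. Kif1b, which also carries mitochondria, was at 41.6, 65.5, 40.4 and 39.7 FPKM in NRAS tumors, 78.0, 80.6, 67.6 and 43.5 FPKM in PDGFB tumors and 102, 129 and 131 FPKM in normal brain. NRAS tumor 2 stood above the other NRAS tumors for both. The change of Kif1b was -1.37 ± 0.24 (adjusted p = 0.000666) in NRAS tumors and -0.86 ± 0.24 (adjusted p = 0.00869) in PDGFB tumors. Kif1c, the widely expressed relative, was at 21.0, 23.1, 30.9 and 23.3 FPKM in NRAS tumors, 21.9, 23.7, 21.1 and 20.6 FPKM in PDGFB tumors and 19.6, 19.7 and 17.3 FPKM in normal brain. It was the only transport kinesin called higher in NRAS tumors, 1.28-fold at 0.35 ± 0.13 (adjusted p = 0.0398). The NRAS call of Kif1c was lost without NRAS tumors 3 or 4, PDGFB tumors 1 or 3 or normal brains 1, 2 or 3 (adjusted p = 0.0511 to 0.139). In PDGFB tumors the change was 0.20 ± 0.13 (adjusted p = 0.227).

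The kinesin-2 motors carry cargo in axons and build cilia. Kif3a, on chromosome 11 from 53567379 to 53601967, was at 22.7, 31.2, 18.8 and 22.1 FPKM in NRAS tumors, 31.4, 29.7, 32.0 and 27.7 FPKM in PDGFB tumors and 55.7, 59.6 and 53.8 FPKM in normal brain. The spread was small and every tumor lay under every normal brain. The change was -1.24 ± 0.15 (adjusted p = 0.0001) in NRAS and -0.88 ± 0.15 (adjusted p = 0.000598) in PDGFB tumors. Its partner Kif3b was at 13.01 to 16.7 FPKM in NRAS tumors, 11.6 to 16.2 FPKM in PDGFB tumors and 17.6 to 20.7 FPKM in normal brain. The change of Kif3b was -0.35 ± 0.14 (adjusted p = 0.0474) in NRAS and -0.43 ± 0.14 (adjusted p = 0.0197) in PDGFB tumors. The NRAS call of Kif3b was lost without NRAS tumors 1, 2 or 4, PDGFB tumors 1, 2 or 3 or normal brains 1, 2 or 3 (adjusted p = 0.05 to 0.148). The PDGFB call of Kif3b was lost without normal brains 2 or 3 (adjusted p = 0.0638 to 0.077). Kif3c, the neuron-enriched partner, was at 19.0, 36.2, 23.2 and 13.8 FPKM in NRAS tumors, 39.4, 32.0, 44.4 and 30.8 FPKM in PDGFB tumors and 35.2, 34.7 and 42.8 FPKM in normal brain. It was lower in NRAS tumors, at -0.76 ± 0.26 (adjusted p = 0.026), and its change was -0.04 ± 0.26 (adjusted p = 0.898) in PDGFB tumors. The difference between the models, -0.71 ± 0.24 (adjusted p = 0.05), lay at the threshold and was not called. It passed without NRAS tumor 2 (adjusted p = 0.00359). It also passed with the pseudocounts 0.1 and 0.5 and with the replicate block (adjusted p = 0.0481 to 0.0497). The same held with the run as a covariate (adjusted p = 0.025) and within the high run (adjusted p = 0.0279). The NRAS call of Kif3c was lost without NRAS tumors 1 or 4 or normal brains 1 or 3 (adjusted p = 0.051 to 0.0914). That call was also lost with the replicate block (adjusted p = 0.0567) and within the low run (adjusted p = 0.198). Kif17, a dendritic motor, was at 2.27 to 4.196 FPKM in NRAS tumors, 0.910 to 4.16 FPKM in PDGFB tumors and 4.54 to 6.05 FPKM in normal brain. Its change was -0.69 ± 0.31 (adjusted p = 0.0705) in NRAS tumors and -0.87 ± 0.31 (adjusted p = 0.0295) in PDGFB tumors. The PDGFB call of Kif17 was lost without normal brains 2 or 3 (adjusted p = 0.0793 to 0.0922). The NRAS change of Kif17 passed without NRAS tumor 2 or PDGFB tumor 2 (adjusted p = 0.0426 and 0.0149).

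Kifc2, a neuronal motor of the kinesin-14 family, was at 10.9, 76.6, 25.1 and 38.0 FPKM in NRAS tumors, 29.2, 7.58, 24.9 and 40.1 FPKM in PDGFB tumors and 134, 174 and 169 FPKM in normal brain. NRAS tumor 2 was the highest and PDGFB tumor 2 the lowest among the tumors. It was 5.09-fold lower in NRAS tumors, at -2.35 ± 0.61 (adjusted p = 0.0062), and 6.92-fold lower in PDGFB tumors, at -2.79 ± 0.61 (adjusted p = 0.0024). The widely expressed Kifc3 was at 13.4 to 18.5 FPKM in NRAS tumors, 18.8 to 23.1 FPKM in PDGFB tumors and 16.2 to 18.004 FPKM in normal brain. It did not pass the test, at -0.08 ± 0.13 (adjusted p = 0.595) in NRAS tumors and 0.24 ± 0.13 (adjusted p = 0.136) in PDGFB tumors. Kif2a, which trims microtubules in growing neurites and spindles, was at 27.7, 25.4, 19.9 and 19.4 FPKM in NRAS tumors, 31.5, 32.9, 31.4 and 27.1 FPKM in PDGFB tumors and 29.1, 30.3 and 29.3 FPKM in normal brain. It was lower in NRAS tumors, at -0.36 ± 0.14 (adjusted p = 0.0399), and its change in PDGFB tumors was 0.05 ± 0.14 (adjusted p = 0.787). The NRAS call of Kif2a was lost without NRAS tumors 3 or 4, PDGFB tumors 1 or 3 or normal brains 1, 2 or 3 (adjusted p = 0.0534 to 0.105). NRAS tumors differed from PDGFB tumors by -0.41 ± 0.13 (adjusted p = 0.0361). The between-model call of Kif2a was lost without NRAS tumors 3 or 4, PDGFB tumors 1, 2 or 3 or normal brains 1, 2 or 3 (adjusted p = 0.0541 to 0.0998).

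The Kif21 pair differed between the models in opposite directions. Kif21a, a motor that halts microtubule growth at the cell cortex, lies on chromosome 15 from 90933276 to 91049948. It was at 7.47, 18.1, 11.8 and 14.3 FPKM in NRAS tumors, 10.4, 2.71, 6.24 and 5.61 FPKM in PDGFB tumors and 48.2, 51.6 and 46.9 FPKM in normal brain. All tumors were below all normal brains. The change was -1.90 ± 0.34 (adjusted p = 0.000904) in NRAS tumors and -2.89 ± 0.34 (adjusted p = 7.71e-05) in PDGFB tumors. Kif21b, its relative in dendrites and immune cells, lies on chromosome 1 from 136131389 to 136177998. It was at 11.6, 15.2, 13.8 and 7.83 FPKM in NRAS tumors, 26.6, 26.7, 31.1 and 16.1 FPKM in PDGFB tumors and 11.2, 15.1 and 14.2 FPKM in normal brain. It was 1.76-fold higher in PDGFB tumors, at 0.82 ± 0.25 (adjusted p = 0.015), and its change in NRAS tumors was -0.18 ± 0.25 (adjusted p = 0.556). The PDGFB call of Kif21b was lost without normal brain 1 (adjusted p = 0.0647). Between the models Kif21a was higher in NRAS tumors, at 0.99 ± 0.32 (adjusted p = 0.0405). The between-model call of Kif21a was lost without NRAS tumors 2, 3 or 4, PDGFB tumors 2, 3 or 4 or normal brains 1, 2 or 3 (adjusted p = 0.0581 to 0.0985). Kif21b was lower in NRAS tumors, at -0.99 ± 0.23 (adjusted p = 0.00972), a call held in all 21 other settings. The ratio of Kif21a to Kif21b FPKM was 0.646, 1.20, 0.852 and 1.82 in NRAS tumors, 0.391, 0.101, 0.201 and 0.349 in PDGFB tumors and 4.30, 3.41 and 3.30 in normal brain. The 3 groups did not overlap. That ratio was chosen after its values were seen and has no test.

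Kif13a, which carries endosomes and receptors, lies on chromosome 13 from 46749087 to 46929867. It was at 11.6, 10.4, 7.43 and 6.13 FPKM in NRAS tumors, 19.9, 26.0, 18.7 and 12.9 FPKM in PDGFB tumors and 7.90, 7.29 and 7.77 FPKM in normal brain. It was 2.29-fold higher in PDGFB tumors than in normal brain, at 1.20 ± 0.24 (adjusted p = 0.00152), and its change in NRAS tumors was 0.16 ± 0.24 (adjusted p = 0.59). NRAS tumors differed from PDGFB tumors by -1.04 ± 0.22 (adjusted p = 0.00669), without overlap. Its relative Kif13b was at 3.75 to 4.68 FPKM in NRAS tumors, 1.77 to 6.68 FPKM in PDGFB tumors and 5.51 to 8.27 FPKM in normal brain. It was not called, at -0.66 ± 0.31 (adjusted p = 0.0867) in NRAS and -0.56 ± 0.31 (adjusted p = 0.142) in PDGFB tumors. The NRAS change passed without PDGFB tumor 4 (adjusted p = 0.00745), with quantile normalization (adjusted p = 0.0239) and within the low run of title numbers (adjusted p = 0.035). Kif16b, an endosome motor, was at 4.03, 3.27, 3.45 and 4.25 FPKM in NRAS tumors, 3.18, 2.40, 2.47 and 2.35 FPKM in PDGFB tumors and 3.91, 4.13 and 3.77 FPKM in normal brain. It was lower in PDGFB tumors, at -0.46 ± 0.14 (adjusted p = 0.0162), and its change in NRAS tumors was -0.06 ± 0.14 (adjusted p = 0.725). The PDGFB call of Kif16b was lost without normal brain 2 (adjusted p = 0.0591). It was higher in NRAS than in PDGFB tumors by 0.40 ± 0.13 (adjusted p = 0.0442). The between-model call of Kif16b was lost without NRAS tumors 1, 3 or 4, PDGFB tumors 2, 3 or 4 or normal brains 1, 2 or 3 (adjusted p = 0.0639 to 0.11).

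**Figure D5:**
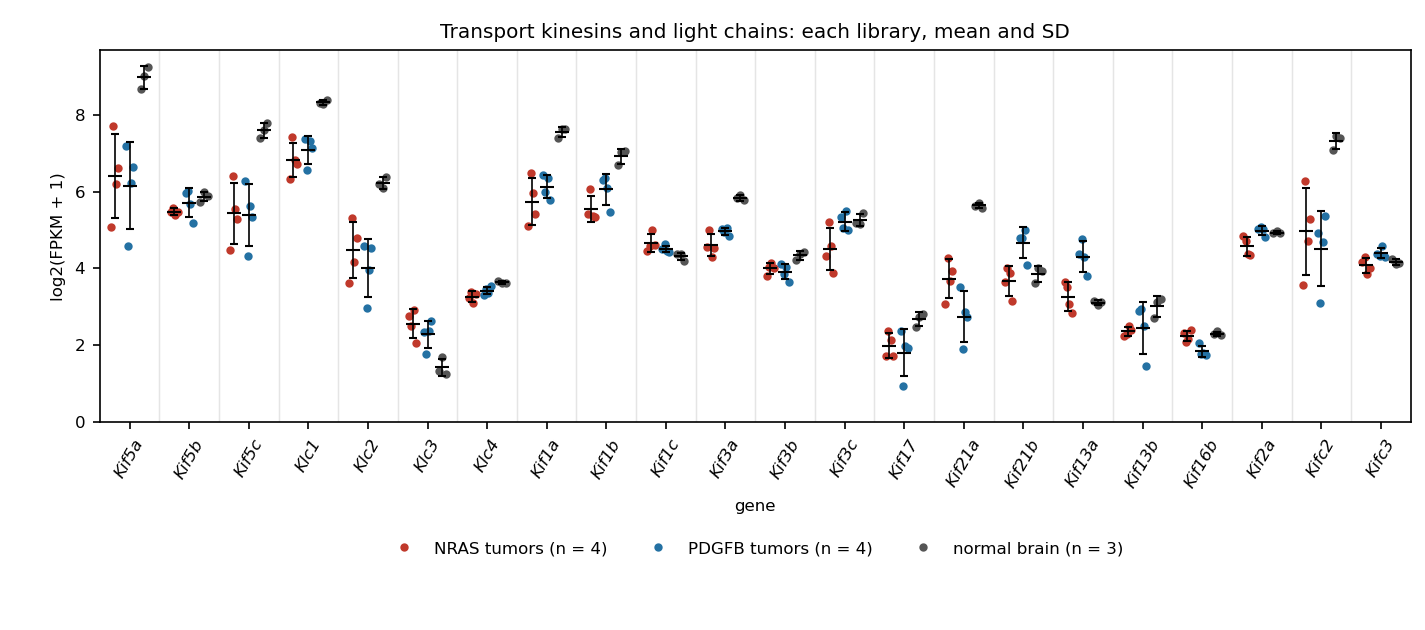
Level of the 18 transport kinesins and 4 light chains, as log2(FPKM + 1), in each library of NRAS tumors, PDGFB tumors and normal brain; points are libraries and bars the mean and SD. Kif5a, Kif5c, Klc2 and Kifc2 lie lower and spread more in tumors than in normal brain, while the ranges of Kif5b in tumors and normal brain overlap.

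Of the light chains that link kinesin-1 to cargo, Klc1, the most abundant, was at 79.7, 171, 111 and 104 FPKM in NRAS tumors, 163, 92.9, 158 and 139 FPKM in PDGFB tumors and 314, 309 and 336 FPKM in normal brain. Its change was -1.503 ± 0.25 (adjusted p = 0.000572) in NRAS tumors and -1.24 ± 0.25 (adjusted p = 0.00163) in PDGFB tumors. Klc2 was at 11.4, 39.0, 17.0 and 26.7 FPKM in NRAS tumors, 22.9, 6.88, 14.6 and 22.2 FPKM in PDGFB tumors and 72.03, 67.4 and 82.9 FPKM in normal brain. Its change was -1.75 ± 0.43 (adjusted p = 0.00473) in NRAS tumors and -2.21 ± 0.43 (adjusted p = 0.00125) in PDGFB tumors. Klc3, best known from the sperm tail, went the other way. It was at 5.78, 4.71, 6.60 and 3.14 FPKM in NRAS tumors, 4.04, 2.44, 4.18 and 5.21 FPKM in PDGFB tumors and 1.53, 2.21 and 1.38 FPKM in normal brain. Its change was 1.14 ± 0.25 (adjusted p = 0.00255) in NRAS and 0.86 ± 0.25 (adjusted p = 0.0122) in PDGFB tumors. The PDGFB call of Klc3 was lost without normal brain 3 (adjusted p = 0.0508). Klc4 was at 7.51 to 9.52 FPKM in NRAS tumors, 8.98 to 10.7 FPKM in PDGFB tumors and 11.3 to 11.7 FPKM in normal brain. Its change was -0.37 ± 0.12 (adjusted p = 0.0201) in NRAS tumors and -0.22 ± 0.12 (adjusted p = 0.148) in PDGFB tumors. The NRAS call of Klc4 was lost without NRAS tumor 3 or normal brains 1, 2 or 3 (adjusted p = 0.053 to 0.0666). No light chain passed the test between the models.

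The 12 neuron markers (such as Snap25, Syt1 and Nefl) were lower too, 11 of 12 in NRAS tumors and 12 of 12 in PDGFB tumors, and none was at 0 in a group. Their summed level was 342, 1523, 655 and 797 FPKM in NRAS tumors, 851, 163, 614 and 825 FPKM in PDGFB tumors and 3073, 3076 and 3558 FPKM in normal brain. Here too NRAS tumor 2 and PDGFB tumor 1 were the highest tumors and NRAS tumor 1 and PDGFB tumor 2 the lowest. Per 100 FPKM of these markers, the FPKM of Kif5a was 9.52, 13.7, 11.1 and 12.1 in NRAS tumors, 16.9, 14.1, 12.03 and 12.02 in PDGFB tumors and 13.2, 16.7 and 16.9 in normal brain. Its level relative to the markers thus overlapped between tumors and normal brain. On the same measure Kifc2 was at 3.20 to 5.03 in NRAS tumors, 3.43 to 4.86 in PDGFB tumors and 4.36 to 5.65 in normal brain. Klc2, by contrast, was at 2.56 to 3.35 in NRAS tumors, 2.37 to 4.22 in PDGFB tumors and 2.19 to 2.34 in normal brain, and Kif1b at 4.30 to 12.2 in NRAS tumors, 5.27 to 49.5 in PDGFB tumors and 3.32 to 4.19 in normal brain. Every tumor stood above every normal brain for both, for Klc2 by a narrow margin. The same held for all other transport kinesins and light chains except Kif5a, Kif5c, Kifc2, Kif1a, Kif21a and Kif13b, which overlapped. These ratios have no test. Myelinating oligodendrocyte markers were lower as well, 9 of 9 in NRAS tumors and 8 of 9 in PDGFB tumors, and their part in these results was not tested. These counts depended on single libraries. Without NRAS tumor 1 or 3 or normal brain 1 or 3 they were 1 or 2 in NRAS tumors, and without PDGFB tumor 2 or 3 or normal brain 1 or 3 they were 1 to 3 in PDGFB tumors. Of 8 astrocyte markers, NRAS tumors had 1 higher and 3 lower, and PDGFB tumors 1 higher and 4 lower. They summed to 959 to 1607 FPKM in NRAS tumors, 388 to 1075 FPKM in PDGFB tumors and 1213 to 1308 FPKM in normal brain.

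The oligodendrocyte progenitor markers stood apart in PDGFB tumors. Of 6 (such as Pdgfra and Olig2), 5 were higher in PDGFB tumors than in normal brain, 4 were higher in NRAS tumors, and 5 were lower in NRAS than in PDGFB tumors. The NRAS count against normal brain was 2 without NRAS tumor 2 or any 1 normal brain. They summed to 153 to 741 FPKM in NRAS tumors, 1268 to 1561 FPKM in PDGFB tumors and 111 to 191 FPKM in normal brain. Of 10 microglia and macrophage markers, NRAS tumors had 8 higher, and PDGFB tumors 1 higher and 1 lower. They summed to 286 to 940.0 FPKM in NRAS tumors, 46.9 to 135 FPKM in PDGFB tumors and 98.0 to 121 FPKM in normal brain. Of 8 T and NK cell markers, NRAS tumors had 7 higher and PDGFB tumors 1 lower. They summed to 10.9 to 265 FPKM in NRAS tumors, 0.503 to 1.71 FPKM in PDGFB tumors and 1.67 to 7.11 FPKM in normal brain, with Cd3d, Cd3e and Gzmb listed at 0 in the 3 normal brains. Of 6 endothelium markers, NRAS tumors had 3 higher and 1 lower, and PDGFB tumors 2 higher and 2 lower. They summed to 59.7 to 87.4 FPKM in NRAS tumors, 54.8 to 72.1 FPKM in PDGFB tumors and 42.3 to 46.3 FPKM in normal brain. Of the counts given for these lists, those of 1 or 2 genes in PDGFB tumors were smaller by 1 or more when some single libraries were left out. With the run as a covariate, 6 T and NK cell markers and 4 microglia and macrophage markers were lower in PDGFB tumors. The latter count was also 4 with the replicate block. With the run as a covariate, 0 endothelium markers were higher in either model. The part of these cell types in the kinesin results was not tested.

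Adaptors and regulators that fasten transport kinesins to cargo were lower in 18 of 20 cases in NRAS tumors and 14 of 20 in PDGFB tumors, with 0 higher in either. Of all genes, 30.3% were called lower in NRAS tumors and 29.2% in PDGFB tumors. With the run as a covariate the PDGFB count was 3. Among those lower in NRAS tumors were Jakmip1, a linker to microtubules, at -2.24 ± 0.51 (adjusted p = 0.00326), and Mapk8ip2, a light-chain-binding scaffold, at -2.07 ± 0.28 (adjusted p = 0.000178). In PDGFB tumors they were at -2.70 ± 0.51 (adjusted p = 0.00113) and -1.59 ± 0.28 (adjusted p = 0.00067). Kifap3, the third subunit of the Kif3 motor, was at -1.75 ± 0.23 (adjusted p = 0.000162) in NRAS and -1.34 ± 0.23 (adjusted p = 0.000642) in PDGFB tumors. Between the models 3 of 20 were lower in NRAS tumors, near the 12.2% of all genes, and 7 without NRAS tumor 2. The 3 were Fez1, a kinesin-1 adaptor, at -1.08, Jakmip2 at -1.02, and Sybu, a linker of syntaxin vesicles, at -0.81.

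Cytoplasmic dynein, the motor that carries cargo back toward the cell body, and its activator dynactin were lower in 13 of 20 genes in NRAS tumors and 10 of 20 in PDGFB tumors, with 1 higher in each, beside the same 30.3% and 29.2% of all genes called lower. The NRAS count was 7 within the low run. The PDGFB count was 6 without PDGFB tumor 2 or normal brain 3 and 4 with the run as a covariate. Dync1i1, the neuronal intermediate chain, was at -2.29 ± 0.53 (adjusted p = 0.0035) in NRAS and -2.89 ± 0.53 (adjusted p = 0.00093) in PDGFB tumors. The 1 higher gene in each was Nde1, a dynein regulator of dividing progenitors, at 1.18 ± 0.26 (adjusted p = 0.00259) in NRAS and 1.30 ± 0.26 (adjusted p = 0.00146) in PDGFB tumors. Between the models 1 of 20 was higher and 3 were lower in NRAS tumors, where 14.3% of all genes were higher and 12.2% lower. The lower count was 1 without NRAS tumor 3 or PDGFB tumor 3.

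Of the 6 kinesins of cilia and signaling, Kif7, the regulator of Hedgehog signaling at the tip of the primary cilium, lies on chromosome 7 from 79698098 to 79715720. It was at 3.72, 2.41, 2.01 and 0.759 FPKM in NRAS tumors, 5.21, 7.29, 5.21 and 4.88 FPKM in PDGFB tumors and 0.743, 0.885 and 0.692 FPKM in normal brain. It was 3.72-fold higher in PDGFB tumors than in normal brain, at 1.89 ± 0.28 (adjusted p = 0.000267). It was 1.72-fold higher in NRAS tumors, at 0.78 ± 0.28 (adjusted p = 0.0308), where NRAS tumor 4 lay within the range of normal brain. The NRAS call of Kif7 was lost without NRAS tumors 1, 2 or 3 or normal brains 1, 2 or 3 (adjusted p = 0.0536 to 0.083). NRAS tumors differed from PDGFB tumors by -1.12 ± 0.26 (adjusted p = 0.00983). Kif9, a motor of motile cilia, was at 0.719, 1.37, 1.61 and 1.71 FPKM in NRAS tumors, 0.992, 0.352, 0.531 and 0.772 FPKM in PDGFB tumors and 2.97, 3.73 and 2.997 FPKM in normal brain. Its change was -0.86 ± 0.20 (adjusted p = 0.00332) in NRAS tumors and -1.36 ± 0.20 (adjusted p = 0.000256) in PDGFB tumors. Between the models Kif9 was not called. It passed as higher in NRAS tumors without NRAS tumor 1 (adjusted p = 0.02) and with the run as a covariate (adjusted p = 0.0292). Kif24, which holds back the growth of primary cilia, was at 0.795 to 1.88 FPKM in NRAS tumors, 0.826 to 3.29 FPKM in PDGFB tumors and 0.450 to 0.607 FPKM in normal brain. Its change was 0.59 ± 0.28 (adjusted p = 0.0842) in NRAS tumors and 0.91 ± 0.28 (adjusted p = 0.0157) in PDGFB tumors. The NRAS change of Kif24 passed without NRAS tumor 2 or PDGFB tumor 4 (adjusted p = 0.0495 and 0.0426).

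Kif26b, an atypical kinesin of cell adhesion and polarity, was at 0.370 to 1.20 FPKM in NRAS tumors, 0.0637 to 0.528 FPKM in PDGFB tumors and 1.06 to 1.99 FPKM in normal brain. Its change was -0.53 ± 0.22 (adjusted p = 0.053) in NRAS tumors and -0.93 ± 0.22 (adjusted p = 0.00395) in PDGFB tumors. The NRAS change of Kif26b passed without NRAS tumor 1 or normal brain 1 (adjusted p = 0.0253 and 0.0473). Kif19a, which sets the length of motile cilia, was at 0.804 to 1.61 FPKM in NRAS tumors, 0.385 to 1.22 FPKM in PDGFB tumors and 0.924 to 2.16 FPKM in normal brain. Its change was -0.29 ± 0.23 (adjusted p = 0.3) in NRAS and -0.68 ± 0.23 (adjusted p = 0.0271) in PDGFB tumors. The PDGFB call of Kif19a was lost without PDGFB tumors 1, 2 or 3 or normal brains 1 or 3 (adjusted p = 0.056 to 0.115). Kif26a, a related atypical kinesin, passed no test and was at 0.806 to 2.47 FPKM in NRAS tumors, 0.781 to 1.20 FPKM in PDGFB tumors and 1.28 to 1.49 FPKM in normal brain. Ependyma and choroid plexus markers were lower in 7 of 8 tested genes in each model. They summed to 10.9 to 48.4 FPKM in NRAS tumors, 5.68 to 818 FPKM in PDGFB tumors and 851 to 2057 FPKM in normal brain. Their part in the change of Kif9 and Kif19a was not tested.

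The numbers in the titles form a low run, 1834 to 1838, with NRAS tumors 1 and 2 and the 3 normal brains, and a high run, 2038 to 2046, with the other NRAS tumors and the PDGFB tumors. The labels do not explain them. Within the low run, NRAS tumors had 15 kinesin genes higher and 11 lower than normal brain. The 12 mitotic genes were among those higher and 8 transport genes among those lower. The NRAS calls of Kif1c, Kif2a, Kif3b, Kif3c and Klc4 were lost there and with the run as a covariate (adjusted p = 0.0573 to 0.363). Within the high run, 0 were higher and 11 lower in NRAS than in PDGFB tumors, 5 of them mitotic and 5 transport genes. PDGFB tumors and normal brain share no run, so that run and group cannot be told apart there. With the run as a covariate, 14 were higher in PDGFB tumors than in normal brain, the 12 mitotic genes among them. The 3 lower genes were Kif21a, Klc2 and Kif9. The calls of Kif21b, Kif24 and Klc3 as higher in PDGFB tumors were lost (adjusted p = 0.0556 to 0.179). In that fit the genes called lower in PDGFB tumors numbered 2305 of all genes and not 4230, 1 transport kinesin and not 10, 6 neuron markers and not 12, and 0 myelinating oligodendrocyte markers and not 8. In NRAS tumors 1 myelinating oligodendrocyte marker was lower in it and not 9. Upper quartiles ran from 13.9 to 14.9 FPKM and the relative depth, read from the steps of low values, from 0.774 to 1 of the deepest library. Depth in reads is unknown. Whether counting used the strand is not stated, and exons of Kif4, Kif18a, Kif20a, Kif2a, Kif3c, Kif7, Kifc2, Kifc3, Klc1 and Klc3 overlap a gene of the other strand that is in the table, and those of Kif17 a gene of the same strand (Sh2d5), so reads could be shared.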

How the data were processed

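RNA was sequenced from 4 NRAS tumors, 4 PDGFB tumors and 3 normal brains. The authors deposited FPKM per gene, with a column for each library. Per the submitters' processing notes, TopHat2 2.0.13, Cufflinks 2.2.1 and the build mm10 were used. Not given in the sources used here are the settings, the annotation and the use of strand. Because FPKM is scaled to the library total, abundant transcripts can lower all others. Of 24347 rows, 27 with names turned into dates were left out.

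A limma 3.58.1 model (R 4.3.3, eBayes with trend) of log2(FPKM + 1) with group means was fitted to the 11 libraries and 14491 genes that reached 1 FPKM in 3 or more. P-values were two-sided and adjusted by Benjamini-Hochberg over these genes, with the threshold 0.05. On this scale low genes show too small a fold change. The fit was tested on simulated data. The Kif5b share was compared by an exact permutation test over samples (scipy 1.17.1). Alternatives were other pseudocounts and scalings, no filter, robust fitting, blocks, the title series, and leaving out each library.

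The members, role lists, pathway and marker lists were chosen with earlier results of these data known. Every member was named or counted; values in every library were due for the members of largest change per role and comparison, and for pathway lists up to 4 called members of largest change could be named. Gene positions are those of GENCODE on GRCm38; promoters are from RefSeq GRCm38.p6, where 9 members had none and are named only: Kif20a, Kif5a, Kif5b, Klc2, Kif13b, Kifc2, Kifc3, Kif21b and Kif19a.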

Additional observations from a re-analysis of the deposited data

Results flagged for a closer look

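Groups of 4 tumors were checked on log2(FPKM + 1) against Dixon's critical value, where chance alone flags about 1 group in 20. In 5 of 80 groups checked, 1 library lay apart from the other 3 of its group by more than that value. These were Kif18a in NRAS tumor 1 (10.9 FPKM), Kif1b in NRAS tumor 2 (65.5 FPKM), Kif7 in PDGFB tumor 2 (7.29 FPKM), Kifc1 in PDGFB tumor 2 (7.42 FPKM) and Kif16b in PDGFB tumor 1 (3.18 FPKM), each the highest of its group. NRAS tumor 2 also had the highest neuron marker sum of its group, and PDGFB tumor 2 the highest proliferation marker sum.

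For 2 genes the estimates against normal brain had opposite signs in the 2 models, and the difference between the models passed the test. Kif21b differed by -0.99 on the log2 scale (NRAS minus PDGFB tumors), with -0.18 in NRAS tumors and 0.82 in PDGFB tumors against normal brain. Kif2a differed by -0.41, with -0.36 in NRAS tumors and 0.05 in PDGFB tumors. The Kif21b call held in all 21 other settings run and the Kif2a call in 12 of 21.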

How the results depend on the processing

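The direction of no kinesin call turned in any setting run. Of 29 calls in NRAS tumors against normal brain 23 held in every setting, of 32 in PDGFB tumors against normal brain 17, and of 11 between the models 5 (Kif11, Kif18a, Kif13a, Kif21b and Kif7). The 12 mitotic calls against normal brain held in all of them for both models. With the run of title numbers as a covariate, kinesin genes lower in PDGFB tumors than in normal brain numbered 3 and not 15, in a fit where only NRAS tumors link the runs. Kinesin genes higher in NRAS than in PDGFB tumors numbered 2, and 0 with no filter, 1 with quantile normalization, 1 with robust hyperparameters, 1 with the run as a covariate and 0 within the high run; the cause was not tested. Leaving out 1 library at a time gave 0 to 2 of these, and 5 to 13 lower genes where 9 were lower in all libraries. The higher count was 2 without NRAS tumor 1 or PDGFB tumor 1, 1 without NRAS tumor 2, and 0 without any of the other 8 libraries. Without NRAS tumor 1 the genes were Kif21a and Kif9, with Kif16b lost. With the run as a covariate the gene was Kif9, with Kif16b and Kif21a lost. The lower count was 5 without PDGFB tumor 2 or 3 and 13 without NRAS tumor 1 or 2. It gave 13 to 16 higher and 10 to 16 lower in NRAS tumors against normal brain, and 16 to 17 higher and 12 to 15 lower in PDGFB tumors against normal brain. The Kif5b share differed from normal brain by 13.5 to 23.9 points in NRAS tumors and 16.1 to 29.4 in PDGFB tumors. Between the models it differed by -11.7 to 3.30 points. As a log2 ratio in all libraries the PDGFB difference from normal brain was 2.47 (exact permutation p = 0.0286, not adjusted). The NRAS difference was 2.06 (exact permutation p = 0.0571, not adjusted). 

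Deviations from the group means of same-numbered libraries correlated at -0.499 to 0.158. Pairs matched by title lay inside that range, at -0.083 and 0.127, so these values cannot tell whether replicate numbers pair the samples. With the replicate block, kinesin genes higher in NRAS than in PDGFB tumors were 0 and lower ones 7. The libraries that titles call matched had an intra-pair correlation of 0.0778, and a random block for them changed 0 kinesin calls. Depth in reads is unknown, and levels under 1 FPKM, as of the mitotic genes in normal brain, rest on few reads.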
